A study of Mus musculus with 82 samples.

Results

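The comparison described here sets the hexagons at anterior-posterior coordinate 47 (section 47) against those at coordinate 95 (section 95), the lowest pair of coordinates in a grid of 82 microdissected hexagons from the mouse suprachiasmatic nucleus (SCN). Membership was read from the coordinate label alone, which gave 4 hexagons for section 47 and 6 for section 95, so 10 of the 82. Every hexagon came from group-housed C57BL/6 mice aged 8 weeks, so both sections share strain, age and tissue and differ in the position label. Tissue was stained with cresyl violet, hexagons with a largest radius of 40 µm were cut by laser capture, and each was sequenced as its own library with Smart-seq2, a method that copies whole transcripts from very little RNA. Hexagons were placed by a grid and not by a marker. The labels name no animal, sex or collection time, do not say which end of the anterior-posterior axis is rostral, and give coordinates without a unit. Hexagons may share an animal, so every p-value over hexagons given here is too small and measures only the spread between hexagons. The count columns of both sections carry the same opening letter, A, read here as a library set, and no other section has that letter.

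The SCN is the central circadian pacemaker of mammals. Nearly all its neurons release GABA, and groups of them differ in the peptide they make. Vasopressin (Avp) marks the shell, vasoactive intestinal peptide (Vip) and gastrin-releasing peptide (Grp) mark the core that receives retinal input, and neuromedin S (Nms) is made by a wide group that overlaps both. A hexagon holds several cells, so a level is an average over neurons, glia and vessels. Fewer cells of a type and less RNA per cell cannot be told apart in such data.

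Both sections carried SCN peptide transcripts and general neuron transcripts. Avp and Nms, the peptides of the shell and of the wide group, had counts in all 10 hexagons. Nms in replicate 4 of section 47, at 4.82 CPM, lay under the 7.23 CPM that 3 counts make in that library. Gad1, the GABA-making enzyme, had 675, 968, 854 and 926 CPM (counts scaled to a library total of 1000000) in section 47, against 896, 816, 856, 866, 1186 and 852 CPM in section 95. The Gad1 ranges overlap. Summed CPM of 16 general neuron markers lay between 4890 and 7664 in section 47 and between 5398 and 6704 in section 95. Xist had 0 counts in all 10 hexagons, while Ddx3y, a gene of the Y chromosome, averaged 132 ± 37.8 CPM in section 47 and 110.4 ± 43.3 CPM in section 95 (SD, n = 4 and 6).

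Depth overlapped between the sections. Total counts were 948827, 396801, 435357 and 414797 in section 47, against 581402, 847668, 767868, 685680, 279084 and 608157 in section 95. Exact two-sided permutation tests gave p = 0.595 for the totals, p = 0.814 for genes detected (10771 to 12194 in section 47, 10664 to 12154 in section 95) and p = 0.748 for the share of mitochondrial counts (1.15% to 1.62% in section 47, 1.21% to 1.90% in section 95), with all 3 at 0.814 after Benjamini-Hochberg adjustment. Pearson correlations of log2(CPM + 1) over 8994 genes had a median of 0.576 over the 6 pairs of hexagons within section 47, 0.620 over the 15 pairs within section 95 and 0.601 over the 24 pairs between sections. Pairs across the sections were thus about as alike as pairs within one. These pairs share hexagons and are given as a description.

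Avp, on chromosome 2 from 130580620 to 130582554 of GRCm38, was lower in most section 47 hexagons. It had 321, 50.4, 158.5 and 60.3 CPM in section 47, against 595, 87.3, 342, 287, 878 and 252 CPM in section 95. The lowest values were in section 47, where 3 of 4 hexagons lay below 5 of the 6 of section 95, and the ranges overlap. The difference in mean log2(CPM + 1) was −1.52 (exact two-sided permutation test over 210 splits, p = 0.0810, 0.371 after adjustment over 6 peptides). The smallest p this design allows is 0.00476. In edgeR the log2 fold change was −1.42 (SE 0.62), with an unadjusted p of 0.0390 and an adjusted p of 0.9996.

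Nms, on chromosome 1, had 122, 116, 20.7 and 4.82 CPM in section 47, against 246, 57.8, 107, 204, 125 and 47.7 CPM in section 95. The lowest values were in section 47 and the ranges overlap. The difference of −1.61 on the log2(CPM + 1) scale did not pass (exact permutation p = 0.124, adjusted 0.371).

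Vip, on chromosome 10 from 5639218 to 5647617, was nearly absent from both sections apart from a single hexagon. It had 0, 1963, 0 and 0 CPM in section 47, against 3.44, 0, 0, 0, 3.58 and 1.64 CPM in section 95. Replicate 2 of section 47 held all 779 Vip counts of its section, and the 6 hexagons of section 95 held 4 counts together. A count of 0 allows up to 3.16 to 7.23 CPM in the other section 47 hexagons, counting error only. The difference in mean log2(CPM + 1) was 1.78 with that hexagon (exact permutation p = 0.757, adjusted 0.909) and −0.96 without it, so 1 library sets its sign. The value without it has no test, since that hexagon was left out for its Vip level.

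The other core and output peptides were low. Grp had 2 counts in section 47 and 3 in section 95, below what supports a fold change. Prok2, a secreted clock output, had 74.8, 20.2, 20.7 and 0 CPM in section 47, against 41.3, 1.18, 6.51, 8.75, 71.7 and 0 CPM in section 95. Cck, the cholecystokinin precursor, had 15.8, 93.2, 27.6 and 0 CPM in section 47, against 63.6, 51.9, 104.2, 17.5, 35.8 and 3.29 CPM in section 95. Both overlap between sections (exact permutation p = 0.686 for Prok2 and 0.457 for Cck). Of 10 neuropeptide genes with enough counts to test, 1 had an unadjusted p under 0.05 in each direction, Gal higher and Avp lower in section 47, and 3 had a positive fold change. Over all genes tested, 1.53% were higher and 2.45% lower at that unadjusted threshold. Gal, the precursor of galanin, had 114, 50.4, 170.0 and 12.1 CPM in section 47, against 5.16, 12.98, 5.21, 59.8, 3.58 and 47.7 CPM in section 95. The Gal ranges overlap (log2 fold change 1.92, SE 0.78, edgeR unadjusted p = 0.0244, adjusted 0.9996).

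**Figure D1:**
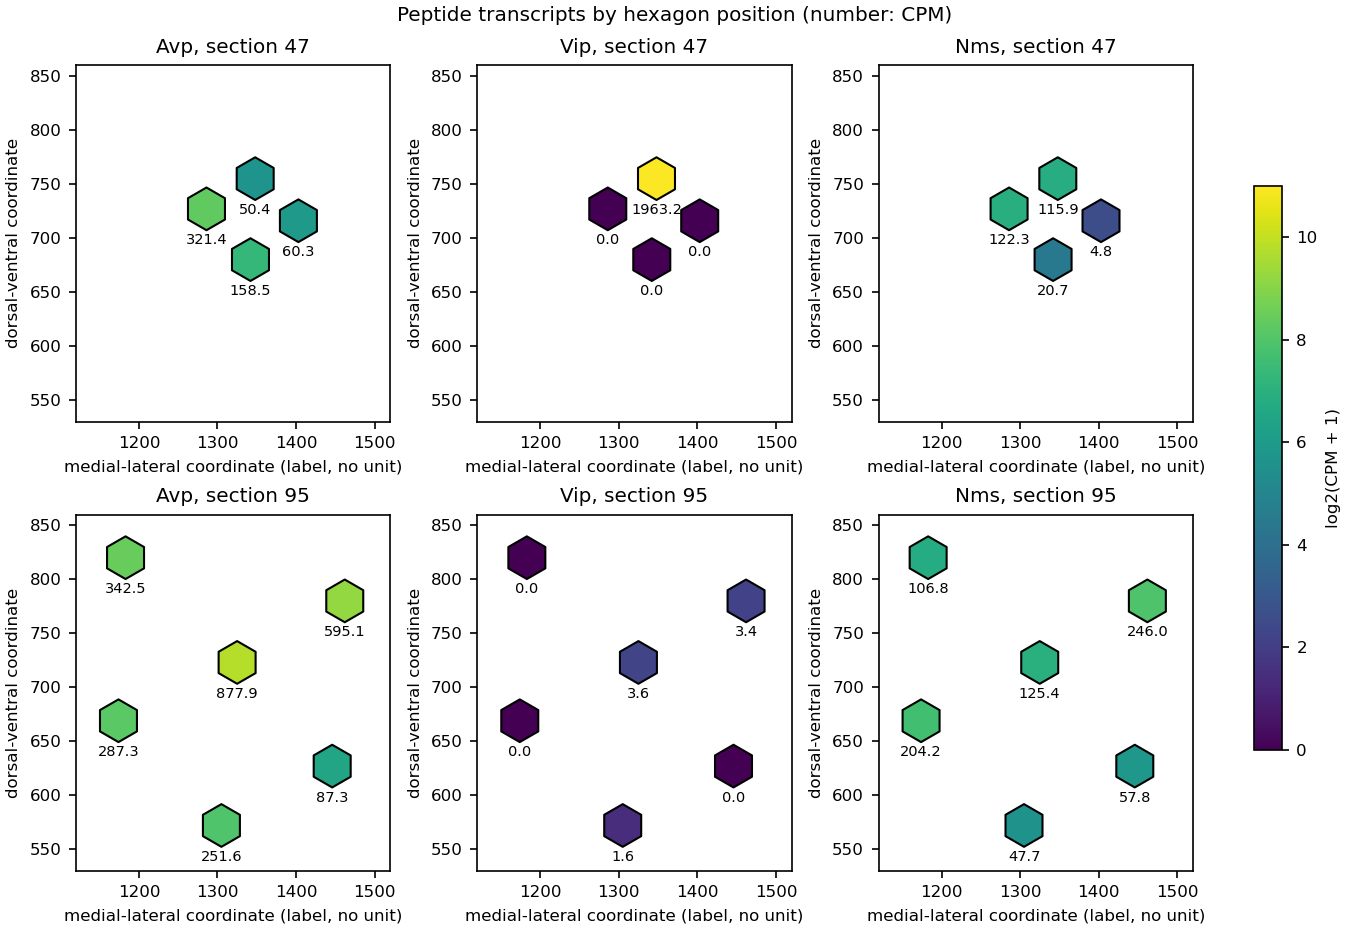
Each hexagon is drawn at its labelled medial-lateral (horizontal) and dorsal-ventral (vertical) coordinate, which carry no unit, with section 47 above section 95; colour is log2(CPM + 1) and the printed number is CPM. Avp and Nms had counts in all 10 hexagons, with Nms under 3 counts in replicate 4 of section 47. Vip reached 1963 CPM in 1 hexagon of section 47 and at most 3.58 CPM in the other 9.

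The map of peptide levels shows that section 47 covered a smaller area. Its hexagons lay at medial-lateral coordinates 1286 to 1403 and dorsal-ventral coordinates 680 to 755, against 1174 to 1462 and 572 to 820 in section 95. The Vip-rich hexagon had the highest dorsal-ventral coordinate of section 47, 755. The hexagons of section 95 at 780 and 820 had 3.44 and 0 CPM of Vip.

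The Vip-rich hexagon differed from the other 9 in more than Vip. Myelin genes stood next after Vip when genes with 100 CPM or more there were ranked by their ratio to the highest of the other hexagons. Mbp, a myelin membrane protein, had 3982 CPM there and at most 759 CPM in the other 9. Mobp, another myelin protein, had 1134 CPM there and at most 253 CPM in the other 9. Cldn11, the tight junction protein of myelin, had 161 CPM against at most 24.7 CPM. The 11 oligodendrocyte markers summed to 8483 CPM in this hexagon, to between 356 and 1186 CPM in the other 3 of section 47, and to between 490 and 1246 CPM in section 95; none of the 11 was at 0 in all 10 hexagons. Hbb-bs, a globin, reached 219 CPM against at most 88.5 CPM elsewhere, and the endothelial transporter Slco1a4 reached 212 CPM against at most 80.2 CPM. The 12 endothelial markers, Slco1a4 among them, summed to 1225 CPM in this hexagon, within the 745 to 1485 CPM of section 95. The 10 markers of mural cells, which wrap vessels, summed to 78.1 CPM there, below the 108.5 to 925 CPM of section 95. Replicate 1 of section 47 had a lower mural sum, 29.5 CPM. The part of myelin and vessel transcripts in its other values was not tested.

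The same hexagon held neuronal transcripts as well. Cartpt, the precursor of CART peptides, was at 141 CPM there against at most 66.6 CPM in the other 9, and Elavl2, a neuronal RNA-binding protein, at 247 CPM against at most 104.2 CPM. Avp, at 50.4 CPM, was below the lowest of the other 9 hexagons (60.3 CPM). Nms was at 116 CPM, close to their median of 107 CPM, and Grp at 0. Vipr2, the receptor for VIP in the SCN, was at 222 CPM, within the range of 87.1 to 477 CPM of the others. These genes were ranked by their values in this hexagon and carry no test.

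Across all genes no difference between the sections passed. Of 8994 genes with 10 or more counts in at least 4 of the 10 hexagons, 0 (percent called: 0%) had an adjusted p under 0.05 in edgeR's quasi-likelihood test, with or without the Vip-rich hexagon. An unadjusted p under 0.05 was found for 358 genes (3.98%), with 138 (1.53%) higher and 220 (2.45%) lower in section 47, and for 355 without the Vip-rich hexagon. DESeq2 called 2 genes, Lpar1 and Dck, and limma-voom called Gm42418 alone. Neighbouring sections elsewhere in the series gave few calls too in a fit of 81 hexagons: 0 for section 47 over 95, 1 (0.00874%) for 95 over 143, 2 (0.0175%) for 143 over 191, 0 for 191 over 239 and for 239 over 287, 1 (0.00874%) for 287 over 335, and 24 (0.21%) for 335 over 383. The groups of these pairs differ in size.

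**Figure D2:**
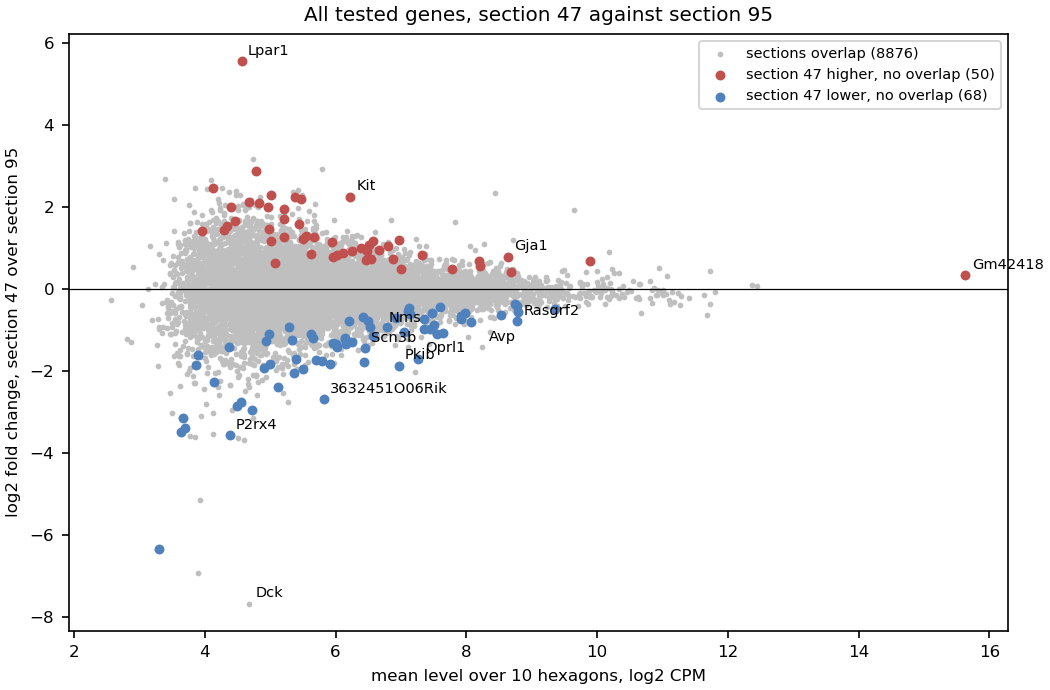
Each point is 1 of 8994 tested genes: the mean level over the 10 hexagons in log2 CPM (horizontal) and the edgeR log2 fold change of section 47 over section 95 (vertical). The 50 genes in red and the 68 in blue are those for which no section 47 hexagon overlapped any section 95 hexagon, section 47 higher and lower, and Lpar1 stands highest; the fold change of Dck, at 0 in all section 47 hexagons, depends on the fit and is no bound.

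Genes whose sections did not overlap are described next. All 4 section 47 hexagons lay above all 6 of section 95 for 50 genes (0.556% of those tested) and below for 68 (0.756%), 1.31% together. Without the Vip-rich hexagon these counts were 104 (1.16%) and 140 (1.56%). If hexagons were exchangeable, a gene would separate fully in a given direction in a single split of 210, a share of 0.00476. Leaving out a section 47 hexagon lowers the splits to 84, so separation by chance becomes more common. Whether either pair of counts exceeds its chance share was not tested, nor whether the Vip-rich hexagon hid differences. The non-overlapping genes named below are the 12 of smallest p in each direction with a mean level of 20 CPM or more. That floor was met by 47 of the 50 and 61 of the 68. All 24 stayed without overlap when the Vip-rich hexagon was left out, which the choice of genes fixes in advance.

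Lpar1, a G protein-coupled receptor for lysophosphatidic acid on chromosome 4 from 58435255 to 58553898, stood furthest apart. It had 68.5, 37.8, 64.3 and 60.3 CPM in section 47, against 1.72, 2.36, 1.30, 0, 0 and 0 CPM in section 95, or 133 counts against 4. All section 47 hexagons carried it and section 95 was at or near 0. Lpar1 means from coordinate 47 to 383 were 57.7, 0.897, 39.1, 34.8, 21.8, 31.3, 33.0 and 27.8 CPM. Lpar1 was thus lowest in section 95 and highest in section 47, with sections 143 to 383 between. Its log2 fold change was 5.57 (SE 0.93) with an adjusted p of 0.0926 in edgeR. Over the alternatives the adjusted p ran from 5.16e-05 in DESeq2 to 0.9998, so whether Lpar1 is called depends on the test.

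Kit, the receptor tyrosine kinase for stem cell factor on chromosome 5, had 193, 144, 101 and 135 CPM in section 47, against 8.60, 38.9, 26.0, 11.7, 3.58 and 85.5 CPM in section 95. A single section 95 hexagon came near the lowest section 47 value. Kit means from coordinate 47 to 383 were 143, 29.1, 47.4, 108, 208, 264, 158 and 72.2 CPM. Kit was thus lowest in section 95, while section 47 lay within the range of sections 143 to 383. The log2 fold change was 2.26 (SE 0.59, edgeR adjusted p = 0.9996, from 0.0350 to 0.9999 over the alternatives). Ext1, a glycosyltransferase that builds heparan sulfate chains, had 70.6, 88.2, 20.7 and 48.2 CPM in section 47, against 18.9, 5.90, 0, 0, 14.3 and 8.22 CPM in section 95, a log2 fold change of 2.89. Neu1, a lysosomal sialidase, had 78.0, 58.0, 39.1 and 91.6 CPM in section 47, against 34.4, 18.9, 23.4, 4.38, 17.9 and 3.29 CPM in section 95, a log2 fold change of 1.96. None of these had an adjusted p under 0.05 in edgeR with the filter on low counts; without that filter Kit alone of them did, at 0.0350.

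Ica1, which encodes a BAR domain protein of secretory vesicles, averaged 144 ± 34.6 CPM in section 47 and 62.6 ± 18.97 CPM in section 95 (SD, n = 4 and 6; log2 fold change 1.19). Rmnd5a, part of an E3 ubiquitin ligase complex, averaged 188 ± 26.2 CPM in section 47 and 83.7 ± 31.5 CPM in section 95 (1.19). Akap6, an anchoring protein for protein kinase A, averaged 382 ± 95.6 CPM in section 47 and 235 ± 42.8 CPM in section 95 (0.69). Cd81, a membrane tetraspanin, averaged 1232 ± 243 CPM in section 47 and 764 ± 202 CPM in section 95 (0.69), and the annotation places a gene on its other strand. Bend4 and Gm3764 also had higher means in section 47, with log2 fold changes of 2.00 and 2.20.

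Gm42418, a noncoding RNA gene on chromosome 17 whose reads are often counted as a sign of ribosomal RNA, held 5.46%, 5.49%, 6.17% and 6.08% of counts in section 47, against 4.44%, 4.24%, 4.76%, 5.26%, 4.22% and 4.62% in section 95. It was higher in every section 47 hexagon by a small amount (log2 fold change 0.34, SE 0.09), and its exons overlap AY036118 and CT010467.1 on the other strand. Its adjusted p was 0.9996 in edgeR and 0.0452 in limma-voom. Whether this RNA has a part in the other differences was not tested.

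Rasgrf2, a calcium-responsive exchange factor for Ras on chromosome 13, was lower in section 47, where it had 348, 318, 285 and 265 CPM, against 514, 536, 577, 446, 652 and 434 CPM in section 95. Every section 47 value was below the lowest of section 95 (log2 fold change −0.79, SE 0.19). Oprl1, the nociceptin receptor on chromosome 2, had 24.2, 129, 32.2 and 81.97 CPM in section 47, against 156, 257, 146, 244, 190 and 279 CPM in section 95 (log2 fold change −1.70, SE 0.42). The Vip-rich hexagon had the highest Oprl1 of section 47, and the log2 fold change without it was −2.24. Scn3b, an auxiliary subunit of voltage-gated sodium channels, had 33.7, 63.0, 41.4 and 33.8 CPM in section 47, against 112, 143, 97.7, 114, 115 and 118 CPM in section 95 (−1.45). Pkib, an inhibitor of protein kinase A, had 74.8, 63.0, 43.6 and 7.23 CPM in section 47, against 203, 101, 219, 149, 283 and 105 CPM in section 95 (−1.86). Each of these had an adjusted p of 0.9996 in edgeR with the filter on low counts, and without it Oprl1 and Pkib were at 0.0350.

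P2rx4, an ATP-gated ion channel, was close to absent from section 47. It had 1.05, 10.1, 0 and 0 CPM in section 47, against 41.3, 30.7, 27.4, 36.5, 43.0 and 18.1 CPM in section 95 (log2 fold change −3.56, SE 1.11). Usp15, a deubiquitinating enzyme, averaged 110.0 ± 49.9 CPM in section 47 and 238 ± 36.2 CPM in section 95. Psmc1, an ATPase of the proteasome cap, averaged 109.5 ± 10.4 CPM in section 47 and 216 ± 57.7 CPM in section 95. Nup133, of the nuclear pore, averaged 23.9 ± 12.4 CPM in section 47 and 84.3 ± 50.4 CPM in section 95, and Slc7a6, an amino acid exchanger, 22.8 ± 6.85 CPM in section 47 and 76.6 ± 32.6 CPM in section 95. The rest of the group were 2900011O08Rik, 3632451O06Rik and N4bp2l1, at log2 fold changes of −1.07, −2.69 and −1.78.

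Dck, deoxycytidine kinase of nucleoside salvage, was at 0 in all 4 section 47 hexagons. Section 95 had 0, 24.8, 36.5, 105.0, 25.1 and 64.1 CPM. With 0 counts in section 47 against 167 in section 95, and a floor of 3 counts over the group, pooled Dck was at least 32.4-fold lower in section 47, counting error only. The spread between hexagons is not part of this bound. The hexagon of section 95 at 0 makes the sections overlap, and Dck was called by DESeq2 (adjusted p = 0.00654) and by edgeR with no filter on low counts (adjusted p = 0.0157), but not by edgeR with the filter.

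**Figure D3:**
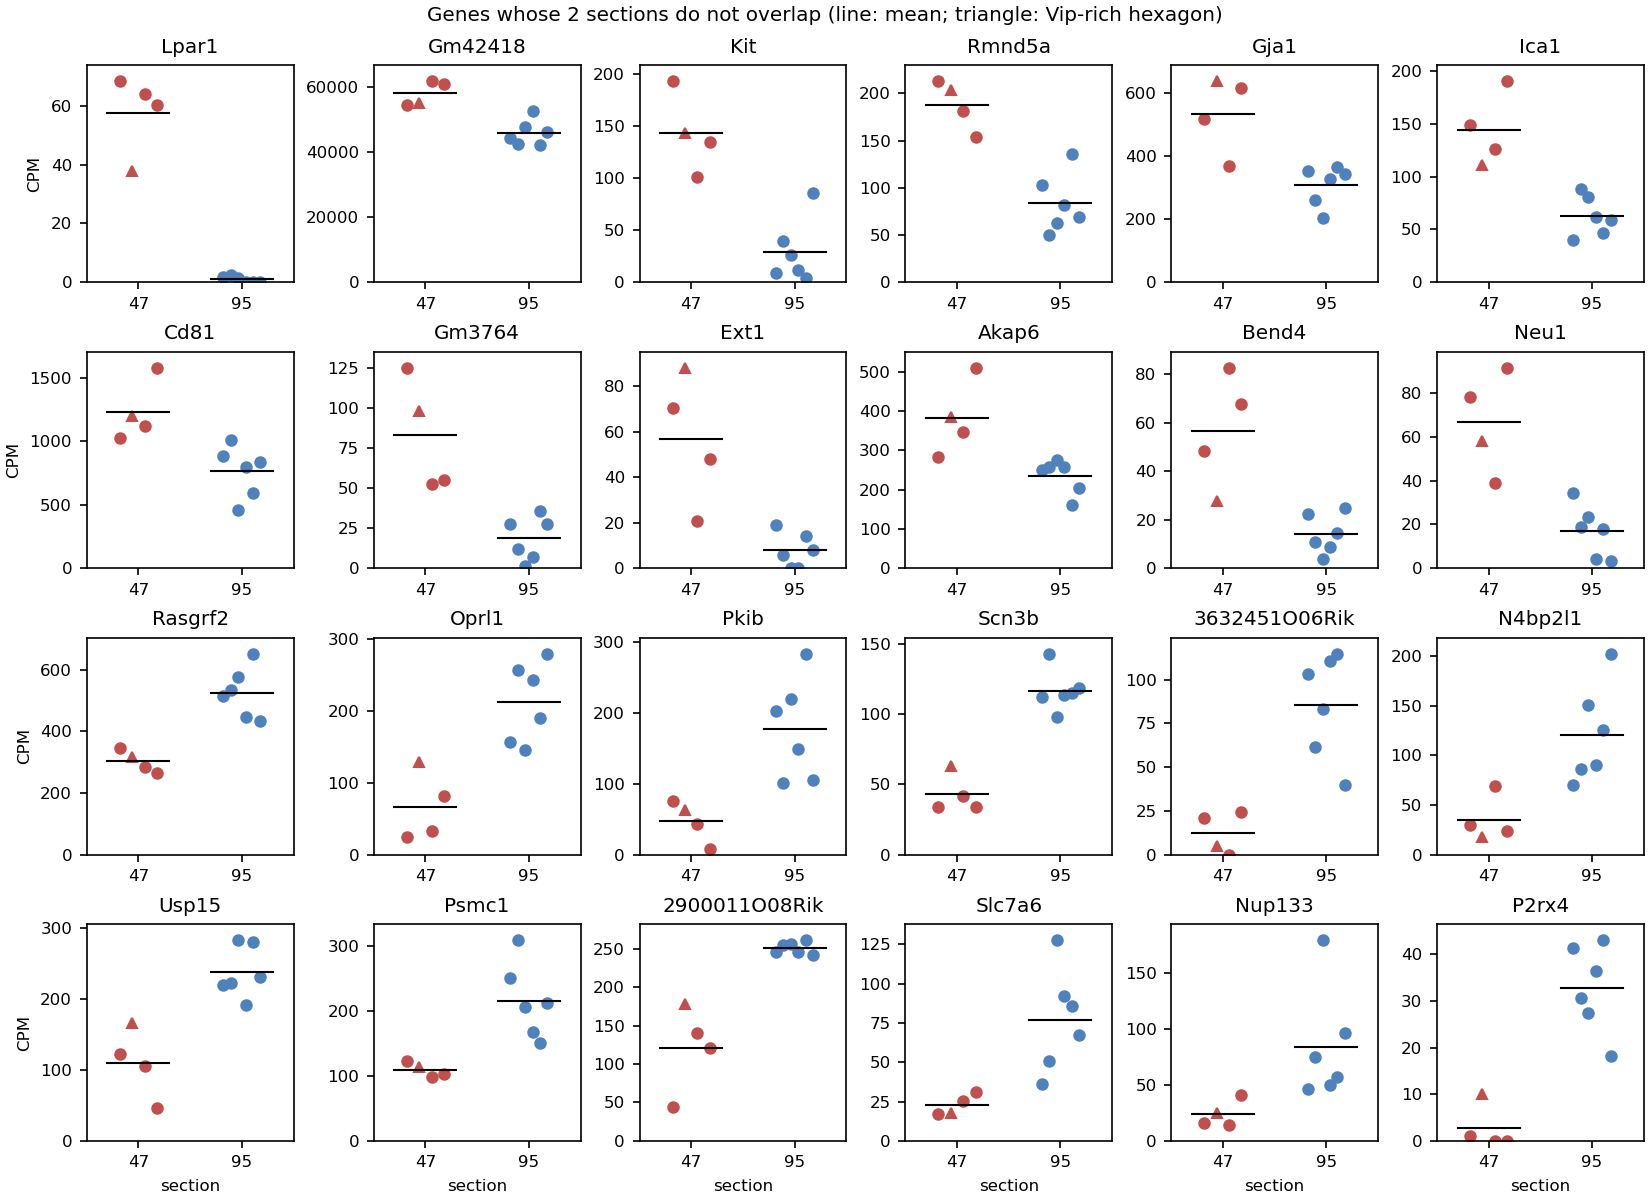
CPM of the 24 named genes without overlap, with section 47 (red) left of section 95 (blue) in every panel; each point is a hexagon, the triangle is the Vip-rich hexagon and the line is the mean. Lpar1 lies between 37.8 and 68.5 CPM in section 47 and at or below 2.36 CPM in section 95, while Gm42418 differs by a log2 fold change of 0.34.

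Astrocyte markers were mostly higher in section 47. Of 12 tested, 10 had a positive log2 fold change with a median of 0.46, beside −0.03 over all 8994 genes tested, of which 4276 were positive. Unadjusted p-values were under 0.05 for 3 of them, all higher, beside 138 (1.53%) higher over all genes, and none passed adjustment. Gja1, connexin 43 of astrocyte gap junctions, had 518, 638, 368 and 617 CPM in section 47, against 353, 259.5, 204.5, 328, 366 and 342 CPM in section 95, with no overlap (log2 fold change 0.80, SE 0.22). Gja1 was the only 1 of the 12 without overlap, beside 50 (0.556%) higher without overlap over all genes. Gfap, the filament protein of astrocytes, had 326, 421, 276 and 564 CPM in section 47, against 160.0, 127, 178, 283, 201 and 281 CPM in section 95, and Agt, angiotensinogen, averaged 641 ± 313 CPM in section 47 and 275 ± 121 CPM in section 95. The 2 markers of the 12 with a negative log2 fold change are not named here. Clu, a secreted chaperone abundant in astrocytes, is not among the 12 and was added after its value was seen. It had 1330, 1678, 1034 and 2430 CPM in section 47, against 676, 1018, 704.5, 984, 641 and 1123 CPM in section 95, and the ranges overlap (log2 fold change 0.91, SE 0.22). The summed markers ran from 4920 to 8821 CPM in section 47 and from 3086 to 6902 CPM in section 95, and the ranges overlap. No astrocyte marker was at 0 in all 10 hexagons. The median was 0.48 without the Vip-rich hexagon. The part of astrocyte RNA in the other differences was not tested.

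Among the other non-neuronal markers none passed adjustment. For oligodendrocytes the median log2 fold change over 5 tested markers was 1.64 with the Vip-rich hexagon and −0.02 without it. Mbp alone of the 5 had an unadjusted p under 0.05, beside 1.53% higher over all genes. Microglia markers summed to between 113 and 522 CPM in section 47 and between 23.4 and 721 CPM in section 95, with a median log2 fold change of 0.43 over 8 tested, −0.10 without the Vip-rich hexagon. Endothelial markers summed to between 363 and 1225 CPM in section 47 and between 745 and 1485 CPM in section 95. Meningeal fibroblast markers summed to at most 207 CPM in section 47 and at most 865 CPM in section 95, and Col3a1 and Igf2 were at 0 in all 10 hexagons. General neuron markers had a median of 0.04 over 14 tested.

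**Figure D4:**
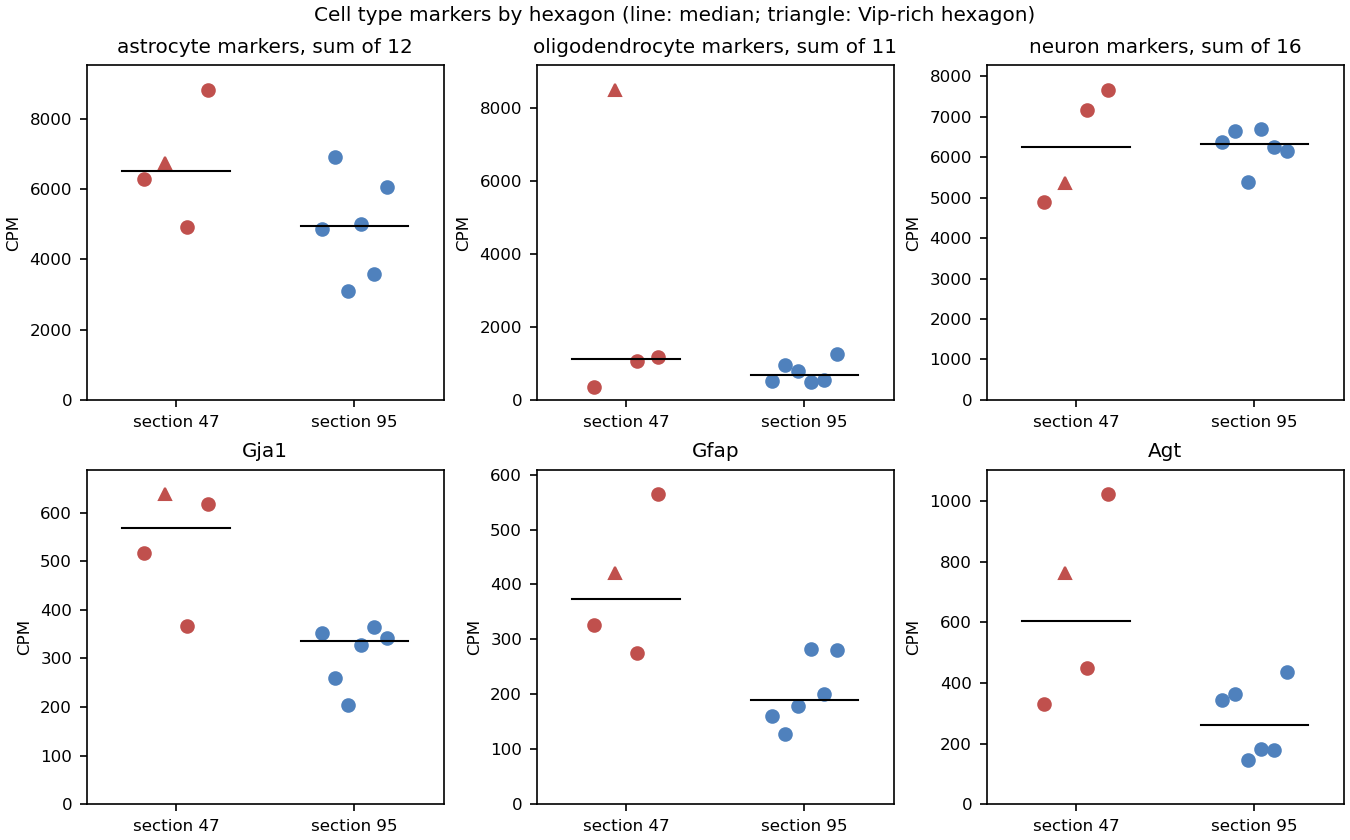
Summed CPM of astrocyte, oligodendrocyte and neuron markers (top) and CPM of 3 astrocyte genes (bottom), with section 47 (red) left of section 95 (blue); points are hexagons, the triangle is the Vip-rich hexagon and lines are medians. The oligodendrocyte sum reaches 8483 CPM in the Vip-rich hexagon alone, and the 4 Gja1 values of section 47 lie above all 6 of section 95.

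No clock gene passed between the sections. None of 10 repressors of the clock loop had an unadjusted p under 0.05 (median log2 fold change −0.30, 3 positive), and Per2 averaged 135 ± 122 CPM in section 47 and 171 ± 56.6 CPM in section 95. Of 12 activators and outputs 1 did, Rorb, a nuclear receptor that activates Bmal1 transcription, with 2118, 869, 1043 and 1020 CPM in section 47, against 1861, 1236, 2576, 1616, 2587 and 1414 CPM in section 95. Rorb was lower in 3 of the section 47 hexagons and overlaps section 95 through the fourth (log2 fold change −0.57, SE 0.25, unadjusted p = 0.0364 and adjusted 0.9996 in edgeR). Of 12 SCN transcription factors and related SCN genes, Rorb and Syt10 had an unadjusted p under 0.05, both lower, beside 2.45% of all genes. Syt10, a synaptotagmin enriched in the SCN, averaged 172 ± 61.0 CPM in section 47 and 300.0 ± 146 CPM in section 95. Among 10 immediate early genes Sik1, a kinase induced by light in the SCN, averaged 70.7 ± 18.96 CPM in section 47 and 158 ± 72.6 CPM in section 95 (unadjusted p = 0.00866, adjusted 0.9996 in edgeR), with overlap, and the others had larger p-values.

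Few members of the synaptic lists had low p-values. Of 21 GABA genes, 13 had a positive log2 fold change. Among the 21, Gabbr1 and Gabrq, a GABA-B and a GABA-A receptor subunit, had an unadjusted p under 0.05. Both were lower in section 47, beside 2.45% lower over all genes. Gabbr1 averaged 338 ± 59.0 CPM in section 47 and 481 ± 102 CPM in section 95. Of 16 glutamate receptor genes Grik3, a kainate receptor subunit, had an unadjusted p under 0.05, beside 1.53% higher over all genes. Grik3 averaged 122 ± 64.5 CPM in section 47 and 49.2 ± 29.6 CPM in section 95. Of 28 ion channel genes and 11 stress genes none did. Of 79 ribosomal protein genes tested, 23 had a positive fold change and the median was −0.13, beside 4276 of 8994 and −0.03 over all genes. An unadjusted p under 0.05 was found for 6 of them, all lower, beside 220 (2.45%) lower over all genes. Rpl4 had 525, 469, 492 and 622 CPM in section 47, against 814, 815, 673, 710.2, 659 and 738 CPM in section 95, without overlap (log2 fold change −0.48), and Rpl17 did not overlap either (−0.41). These were the only 2 of the 79 without overlap, beside 68 (0.756%) lower without overlap over all 8994 genes. Summed ribosomal protein CPM ran from 15851 to 20342 in section 47 and from 19150 to 21774 in section 95. Many of these genes have pseudogene copies that can share reads. Of 27 imprinted genes Plagl1 and Inpp5f had an unadjusted p under 0.05, both lower, beside 2.45% lower over all genes.

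Sections 47 and 95 were then set together against sections 143 to 383 (71 hexagons), in a fit with section and both in-plane coordinates as terms. The question was what the 2 lowest sections share that the rest lack. Since library set A holds these sections and no others, set and position cannot be told apart. Of 11440 genes, 172 (1.5%) had an adjusted p under 0.05, with 67 (0.586%) higher and 105 (0.918%) lower in sections 47 and 95. Of the 172, 3 were called both with section 47 alone and with section 95 alone. Of all 172, 41 were called in all 13 fits that left out 1 hexagon, used TMM scaling, dropped the coordinates or dropped low-depth libraries. The count was 94, 106 and 109 without replicates 1, 3 and 4 of section 47 in turn. With section 47 alone 28 of the 172 were called, with section 95 alone 26, and against section 143 only, 8.

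Of 15 neuropeptide genes tested, 4 rose (Trh, Gal, Nts and Cartpt) and 3 fell (Vip, Grp and Prok2), beside 67 and 105 of 11440. The median log2 fold change of the 15 was −0.44, beside 0.01 over all tested, and 6 were positive. Trh, the precursor of thyrotropin-releasing hormone, had 37.9, 55.4, 503 and 4.82 CPM in section 47 and 17.2, 366, 1.30, 209, 624 and 796 CPM in section 95. Its means by section were 150.3, 335, 304, 71.9, 1.58, 15.7, 0 and 39.3 CPM at coordinates 47, 95, 143, 191, 239, 287, 335 and 383, so section 143 was near section 95 and 13 of 13 hexagons at 335 had none (adjusted p = 0.000560 in edgeR, and no call against section 143). Gal averaged 48.1 ± 55.3 CPM in the 10 hexagons and 6.29 ± 21.3 CPM in the other 71 (SD; log2 fold change 3.44, SE 0.69, adjusted p = 0.00151 in edgeR). Gal means were 86.6, 22.4, 18.2 and 17.0 CPM at coordinates 47, 95, 143 and 383, so section 95 was close to 143 and 383. Nts, the neurotensin precursor, averaged 35.3 ± 65.4 CPM in the 10 hexagons and 2.86 ± 7.30 CPM in the other 71 (3.81, SE 0.71). One hexagon, replicate 1 of section 47 with 217 CPM, carries much of this and the call was lost without it. Cartpt averaged 61.8 ± 59.1 CPM in section 47, 4.95 ± 5.44 CPM in section 95 and 4.86 ± 10.3 CPM in the other 71 hexagons. Its call rests on section 47 (log2 fold change 4.69, adjusted p = 0.00144 in edgeR with that section alone, against 0.70 and 0.917 with section 95 alone), and it was lost in 6 of 13 fits (without replicate 2 or 3 of section 47, without replicate 1, 3 or 6 of section 95, and without coordinates). The call of Grp was lost without replicate 1, 2 or 3 of section 47.

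Calcr, the calcitonin receptor, rose in the 2 lowest sections. It had 660, 209, 365 and 139.8 CPM in section 47 and 132, 15.3, 524, 200, 516 and 155 CPM in section 95, with means of 343, 257, 81.8, 83.6, 55.7, 32.5, 120.0 and 440 CPM from coordinate 47 to 383. Levels were thus high at both ends of the series and low between (log2 fold change 2.30, SE 0.52, adjusted p = 0.00943 in edgeR), and the call was lost without the coordinates in the fit. Prok2 fell, with means of 28.9, 21.6, 42.2, 122, 297, 334, 289 and 293 CPM over the same coordinates (−2.76, SE 0.69, adjusted p = 0.0194 in edgeR; lost without replicate 3 or without replicate 4 of section 47). Vip means were 491, 1.44, 5.19, 1329, 3629, 4562, 990 and 338 CPM (log2 fold change −4.77, adjusted p = 0.0178 in edgeR; lost without replicate 3 of section 95 and without coordinates). The Vip call rests on section 95, with a log2 fold change of −0.21 (adjusted p = 0.988) for section 47 alone and −9.32 (adjusted p = 0.00501) for section 95 alone. Leaving out the Vip-rich hexagon moved the joint value to −10.38. Section 143, like section 95, had little Vip. Avp was not called, at 148, 407, 425, 362, 330, 240, 251 and 349 CPM.

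Syt10 fell and stayed called in all 13 fits. It averaged 249 ± 132 CPM in the 10 hexagons and 716 ± 398 CPM in the other 71 (log2 fold change −1.55, SE 0.31, adjusted p = 0.00151 in edgeR). Section means were 172, 300.0, 435, 643, 973, 977, 607 and 561 CPM from coordinate 47 to 383, lowest in section 47 and highest at 239 and 287. No member of the clock repressor list (10) or of the activator and output list (15) was called. In the GABA list 2 of 21 rose and 0 fell, beside 0.586% and 0.918% of all genes: Gabre, the epsilon subunit of GABA-A receptors, averaged 91.1 ± 30.4 CPM in the 10 hexagons and 29.9 ± 25.3 CPM in the other 71 (1.76, SE 0.39), and Gabra3 182 ± 92.8 CPM in the 10 and 86.4 ± 58.9 CPM in the 71 (1.13, SE 0.28; lost without replicate 3 of section 47 or replicate 6 of section 95). Of 28 imprinted genes tested, Peg10, Rtl1 and Gnas rose and Blcap and Cdkn1c fell, beside 0.586% and 0.918% of all genes, the last pair with calls lost in 10 and 5 of 13 fits, among them those without replicate 2, 3 or 4 of section 47. Peg10, a retrotransposon-derived gene, had section means of 596, 482, 204, 266, 274, 239.6, 389 and 522 CPM, so like Calcr it was also high at 383. The Peg10 call was lost without replicate 1 of section 47 and without coordinates. Rtl1 had a log2 fold change of 1.37, and of 0.52 without replicate 1 of section 47 (adjusted p = 0.670 in edgeR), where its call was lost.

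The genes of smallest p in this contrast, picked after their values were seen, included metabolic and vesicle genes. Gapdh, a glycolytic enzyme with many pseudogene copies, averaged 957 ± 124 CPM in the 10 hexagons and 1521 ± 283 CPM in the other 71 (log2 fold change −0.71, SE 0.09, adjusted p = 9.39e-08 in edgeR). Ckb, brain creatine kinase, averaged 494 ± 84.7 CPM in the 10 and 959.5 ± 312 CPM in the 71 (−0.84). Nsg2, a neuronal vesicle protein, averaged 209.9 ± 50.2 CPM in the 10 and 368 ± 91.7 CPM in the 71 (−0.82). Chga, chromogranin A of dense-core vesicles, averaged 100.3 ± 31.9 CPM in the 10 and 268 ± 168 CPM in the 71 (−1.34). Rac1, a small GTPase of the actin cytoskeleton, averaged 77.8 ± 36.1 CPM in the 10 and 230 ± 103 CPM in the 71 (−1.40). Syne1, of the nuclear envelope, averaged 759 ± 188 CPM in the 10 and 450 ± 146 CPM in the 71 (0.84), and Pcdh11x, a protocadherin, 337 ± 125 CPM in the 10 and 120 ± 86.3 CPM in the 71 (1.56). All of these were called in all 13 fits. Ckb and Rac1 were low at coordinate 383 too. Ckb means were 555, 454 and 545 CPM at 47, 95 and 383, and Rac1 means were 94.1, 66.8 and 84.1 CPM. Gapdh, Nsg2, Ckb and Rac1 were also called against section 143 alone, with Rpl8, Pkib and Atg3 lower and Peg10 higher.

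By size, the rule named Trh, Thbs2, Calcr, Sulf1 and Gnas among the genes that rose. Thbs2, thrombospondin 2 of the extracellular matrix, averaged 80.3 ± 79.4 CPM in the 10 hexagons and 16.2 ± 32.0 CPM in the other 71 (log2 fold change 3.11, SE 0.59). Sulf1, which edits heparan sulfate, averaged 60.3 ± 57.4 CPM in the 10 and 15.0 ± 22.5 CPM in the 71 (2.22; lost without replicate 3 or 4 of section 47 or replicate 6 of section 95), and Gnas, the stimulatory G protein subunit, 129 ± 58.2 CPM in the 10 and 47.8 ± 55.4 CPM in the 71 (1.79). Among those that fell were Grp, Tpbg, Vip, Nkd1 and Dck. Nkd1, an inhibitor of Wnt signalling, averaged 0.917 ± 1.69 CPM in the 10 and 29.8 ± 32.2 CPM in the 71, and Tpbg, a trophoblast glycoprotein, 1.24 ± 3.19 CPM in the 10 and 29.9 ± 43.4 CPM in the 71, both called in all 13 fits. Section 143, among the 71, averaged 3.54 CPM of Tpbg, 12.2 CPM of Nkd1, 3.11 CPM of Grp and 38.3 CPM of Thbs2. None of these genes was called against section 143 alone. Dck fell with section 47 alone (adjusted p = 0.0148 in edgeR) and had a log2 fold change of 0.71 with section 95 alone, so its call rests on section 47, and it was lost without any of the 4 hexagons of that section. Of the genes lower in section 47 than in section 95, 3632451O06Rik, Pkib, 2900011O08Rik, Rasgrf2 and Scn3b were also called lower here. The section 47 hexagons by which these genes were chosen are among the 10, so these calls are no second test. The calls of 2900011O08Rik, Rasgrf2 and Scn3b were lost without replicate 1 of section 47, and those of Rasgrf2 and Scn3b also without replicates 3 and 4 of section 47 and 4 and 6 of section 95. Their log2 fold changes with section 47 alone were −3.20, −2.18, −1.31, −0.93 and −1.54, and with section 95 alone −0.55, −0.32, −0.21, −0.16 and −0.06.

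No astrocyte, microglia, oligodendrocyte or endothelial marker was called in this contrast. Over all genes tested, 0.586% were called higher and 0.918% lower. Of 16 general neuron markers Syt1, a synaptic vesicle protein, was called, with 687 ± 260.0 CPM in the 10 hexagons and 392 ± 271 CPM in the other 71 (log2 fold change 0.99), and the call was lost without replicate 3 or 4 of section 47, without replicate 3 or 4 of section 95, and without coordinates. Of 5 meningeal fibroblast markers Dcn, the matrix protein decorin, was called, with 15.1 ± 34.7 CPM in the 10 hexagons and 10.6 ± 35.6 CPM in the other 71. Dcn had counts in 1 hexagon of section 47 and 2 of section 95, and the call (adjusted p = 0.0332 in edgeR) was lost without replicate 4 of either section and without coordinates. All 10 oligodendrocyte markers tested had a negative fold change (median −1.59), and their sum ran from 356 to 8483 CPM in sections 47 and 95 and from 0 to 22328 CPM in the others. Total counts ran from 279084 to 948827 in sections 47 and 95 and from 11905 to 2843366 in the others. The part of myelin RNA or depth in these calls was not tested beyond the fit without 5 low-depth libraries, which called 211 genes.

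**Figure D5:**
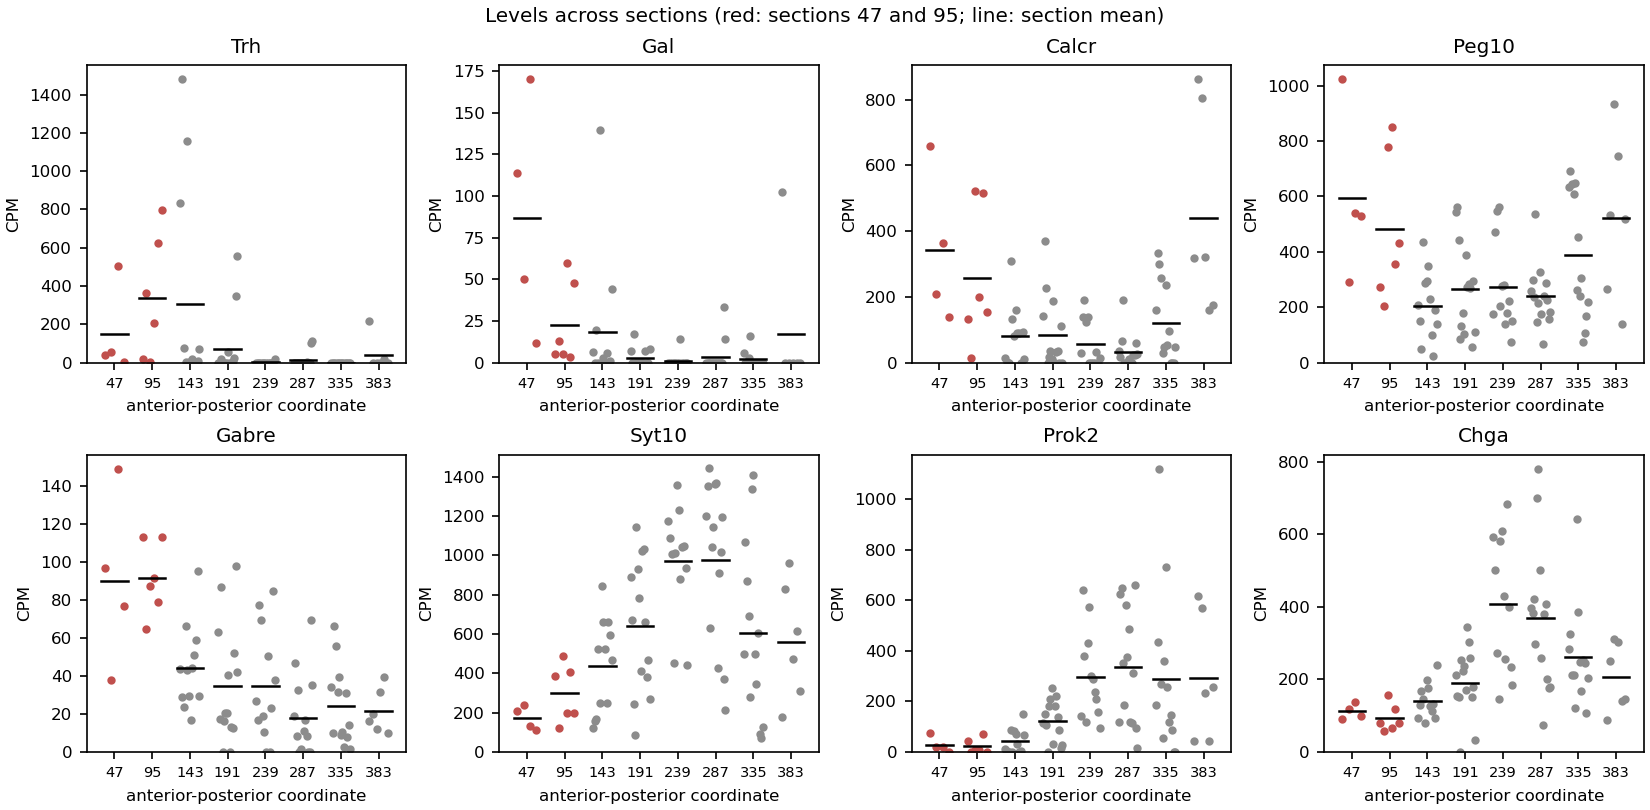
CPM of 8 genes called in the contrast of sections 47 and 95 (red) with sections 143 to 383 (grey), plotted by anterior-posterior coordinate (horizontal, no unit); each point is a hexagon and each line a section mean. Section means of Trh are 150.3, 335 and 304 CPM at 47, 95 and 143, those of Gal 86.6, 22.4 and 18.2 CPM and those of Prok2 28.9, 21.6 and 42.2 CPM; Gabre is highest and Syt10 and Chga are lowest at 47 and 95, and Calcr and Peg10 are high at 383 too.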

How the data were processed

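The authors deposited raw counts, whole numbers, for 27515 genes in 82 libraries. Per the submitters' processing notes the tools were bcl2fastq 2 and STAR and the build GRCm38, with no roles given. Strand setting, counting program and annotation: not given in the sources used here. From the authors' deposited RPKM table only names and lengths were taken; RPKM values were not tested. Symbols came from it for 27055 genes and from a reference table for 455, and 5 had none. Gene positions are from GENCODE M21 on GRCm38 (27464 genes matched). Of 58 named genes, 13 have an exon overlapping another gene, 11 of them on the other strand, where reads cannot be assigned with certainty.

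CPM is a count divided by its column total, times 1000000. The main test was edgeR 4.0.16 in R 4.3.3 (robust quasi-likelihood, column totals as library sizes, Benjamini-Hochberg threshold 0.05) on genes with 10 or more counts in 4 of 10 hexagons, or in 10 of 81 for the contrast with other sections, which had section and both in-plane coordinates as terms. The lone hexagon of a ninth section was left out. A standard error is the fold change over the square root of F. Biological coefficients of variation were 0.622 and 0.727. Single peptides and quality measures had exact permutation tests. Replicate numbers follow accession order and are names only. Total counts over the 82 libraries ran from 11905 to 2843366. The scripts were tested on simulated data.

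Named genes were the 6 peptides, the 12 largest called fold changes in each direction or, since none was called, the 12 non-overlapping genes of smallest p with mean CPM of 20 or more, up to 3 called or non-overlapping members per list, and the 5 largest called fold changes in each direction of the contrast with other sections, again at 20 CPM or more. Genes called by an alternative and list members with an unadjusted p under 0.05 were added after seeing their values. The hexagons compared and the gene lists were chosen with earlier results of these data known. Alternatives used TMM, DESeq2 1.42.0, limma 3.58.1, other filters, thinning and samples left out. The values of 1 gene are not reported here.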

Additional observations from a re-analysis of the deposited data

Results flagged for a closer look

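Of 84 groups of 4 or 6 hexagons examined for a value standing apart from the rest of its section, 5 were picked out; chance alone picks about 1 in 20. Vip in replicate 2 of section 47 had a log2(CPM + 1) of 10.94, with the other 3 hexagons at 0. Grp in replicate 4 of section 47 had a log2(CPM + 1) of 2.54, which is 4.82 CPM, with the others at 0. Nkd1 in replicate 1 of section 95 had a log2(CPM + 1) of 1.44, or 1.72 CPM, with the other 5 at 0. Dck in replicate 1 of section 95 was at 0, below the other 5. Replicate 1 of section 47 had 948827 total counts, above the other 3 of its section. The Grp and Nkd1 values lie under the level of 3 counts in their libraries.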

How the results depend on the processing

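No paired analysis was possible because replicate numbers follow accession order and pair no hexagons. For section 47 against section 95, 0 genes were called in edgeR under TMM or DESeq2 scaling, the stricter filter, the coordinates, the narrower section 95, thinning or any hexagon left out. DESeq2 called 2, limma-voom 1 and edgeR with no filter on low counts 6 (Lpar1, Kit and Clu higher, Oprl1, Dck and Pkib lower). Without the Vip-rich hexagon the count was 9 with no filter, and 0 to 1 with a further hexagon left out; in the fit of 81 hexagons it was 1 without coordinates and 0 to 1 with a hexagon left out. For sections 47 and 95 against the rest, 172 calls became 166 with TMM, 110 without coordinates, 33 with section 47 alone, 28 with section 95 alone and 8 against section 143 only, and ran from 94 (without replicate 1 of section 47) to 175 with a hexagon left out, at 106 and 109 without replicates 3 and 4 of section 47. The cause was not tested. Signs turned for Grp with a pseudocount of 0.1 (−0.14), for Vip (1.82) and Trh (−0.54) against section 143 only, and for Dck with section 95 alone (0.71). With a hexagon left out, differences in mean log2(CPM + 1) ran from −0.96 to 2.69 for Vip, −0.59 to 0.35 for Grp, −0.20 to 1.88 for Prok2 and −2.03 to 0.16 for Cck, while Avp (−2.03 to −1.14) and Nms (−2.19 to −0.72) kept their sign. Differences ran from −365.5 to 108.8 genes detected and from −0.12 to 0.038 percentage points of mitochondrial counts.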
